A study of Mus musculus with 8 samples.

Results

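The RNAs of the mitochondrial protein import machinery were examined in mouse oocytes. Members were all genes whose symbol starts with Timm or Tomm, together with Pam16, Dnlz, Grpel1, Grpel2, Pmpca, Pmpcb, Chchd4, Gfer, Samm50, Mtx1 and Mtx2, without pseudogene symbols, provided that they were listed in all 8 expression tables. This gave 32 members of 15962 genes. A further symbol of this kind, Tomm40l, was listed in the 4 tables of control oocytes alone, at 0.0571 to 0.121 TPM (transcript abundance per library after division by gene length), and was left out.

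The 4 groups of ICR mouse oocytes analysed here have 2 libraries each, made from pools of 15 oocytes, and the study's methods give 6-week-old females as its source of oocytes. GV oocytes are fully grown and arrested in meiotic prophase at the germinal vesicle stage, MII oocytes have matured to metaphase of the second meiotic division, and both control groups came from oocytes cultured in vitro and carried the label WT. The Btg4wt and Btg4tm groups are MII oocytes that had been injected, when fully grown, with cRNA for Myc-tagged BTG4, either wild type or a mutant in which a threonine and the pair of serines next to it were changed to alanine so that they cannot be phosphorylated. BTG4 is an adaptor that brings the CCR4-NOT deadenylase to maternal mRNAs. The Btg4 gene was not deleted in any of the 4 groups, how much of the oocyte's own BTG4 protein remained in the injected groups was not measured here, and no group of injected oocytes without exogenous BTG4 was analysed here. The comparison of MII with GV asks which RNAs decline as the oocyte matures, and that of Btg4tm with Btg4wt asks what the phosphosite mutant does to them.

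Nearly all mitochondrial proteins are made in the cytosol and must be carried into the organelle. The TOM complex in the outer membrane is the common entry gate, with Tomm40 as its channel. From there β-barrel proteins go to the SAM complex of the outer membrane, small cysteine-rich proteins are trapped by the Chchd4 and Gfer relay of the intermembrane space, multispanning carriers are chaperoned by the small TIM proteins to the TIM22 complex, and proteins with a cleavable presequence pass the TIM23 channel, are pulled in by the PAM motor and are trimmed by the matrix processing peptidase. The growing oocyte stores a very large number of mitochondria and the maternal mRNAs that serve them.

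Because many maternal mRNAs are stored and later translated through elements near their 3′ ends, the annotated 3′ ends were read for 2 kinds of motif. The polyadenylation signal (AATAAA or ATTAAA) directs cleavage and tailing in the nucleus, and the cytoplasmic polyadenylation element (TTTTAT or TTTTAAT) is bound by CPEB proteins during maturation. Only the sense strand of the last 100 bases of each transcript was searched, in GENCODE M21 on GRCm38, and all 32 members were matched there by symbol. The sites below are the 4 members that hold the element. They are shown because none of these 4 was called lower in MII (see the values of each gene in its role). Each run has 30 bases, 5′ to 3′ on the transcript's strand, with the element and, where it falls in the window, the signal in capitals.
Timm8b, chr9:50605243-50605272, plus strand: tcaaaagtgaaaTTTTATttatgggaattc
Tomm34, chr2:164053570-164053599, minus strand: taattgaactgaTTTTATtgaagtgtgtgt
Timm29, chr9:21595904-21595933, plus strand: aatgTTTTAATtagtgtgtATTAAAggatt
Tomm70a, chr16:57156672-57156701, plus strand: tgaaaacaatTTTTAATAAAaagttttaaa
In Tomm70a the element TTTTAAT and the signal AATAAA overlap, so the capitals there are both motifs in a single run.

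A further 3 pairs of paralogs or partners without the element are printed beside them, because their levels moved apart during maturation. Timm17b and Timm10 hold the signal ATTAAA and the others AATAAA, and the last 100 bases of Timm8a2 hold 2 signals. Whether the signal bears on these levels was not tested. In these windows the capitals mark the signal alone.
Timm17a, chr1:135295215-135295244, minus strand: aagtggaaactgAATAAAcctttgctcccc
Timm17b, chrX:7908320-7908349, plus strand: ataagtgctgggATTAAAggggtatgcttc
Timm8a1, chrX:134537259-134537288, minus strand: tttggtcactgaAATAAAagctcgcaagat
Timm8a2, chr14:122038388-122038417, plus strand: ctgtacatacaaAATAAAtatttaaaagaa
Timm9, chr12:71123174-71123203, minus strand: attactaaaagtaAATAAAtgagtatcatt
Timm10, chr2:84830182-84830211, plus strand: tgtatatatcttATTAAAacaaatttgtgc
A match is a description of these letters. Whether the oocyte uses these annotated ends was not tested.

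Levels are deposited TPM, scaled between libraries by the median of ratios (factors 0.948 to 1.11) and called scaled TPM here. TPM divides by gene length, so levels can be set side by side between genes, but only roughly. The lengths used are not given, shared or overlapping sequence can change a level, and oligo(dT) priming depends on the poly(A) tail. TPM also keeps no read depth, so only the 2 libraries of each group show how precise a level is. Replicates correlated at Pearson r from 0.982 to 0.987 over all tested genes, and the members' median difference between replicates was 0.134 to 0.199 on the log2 scale. Btg4 itself was at 2722 ± 102 scaled TPM in GV, 5897 ± 149 in MII, 5344 ± 235 in Btg4wt and 3897 ± 243 in Btg4tm oocytes (SD, n = 2), so the injected groups were not above MII and the injection cannot be checked from this gene. Of 11 oocyte markers, 10 were listed, with a summed level of 37575 to 50222. Of 14 cumulus and granulosa markers 6 were listed, with a summed level of 36.5 to 36.8 in GV, 46.6 to 50.2 in MII, 47.2 to 48.4 in Btg4wt and 37.5 to 42.5 in Btg4tm, led by Cyp19a1. Of these 6, Inha was called lower in MII and higher in Btg4tm, as many members were, at 4.37 and 2.11 in GV, 0 and 0.532 in MII, 1.88 and 1.09 in Btg4wt and 9.83 and 5.18 in Btg4tm (-1.72 ± 0.39, adjusted p = 0.0048; 1.74 ± 0.39, adjusted p = 0.0061). Amh, Fshr and Foxl2, which define granulosa cells, were not among the listed genes, and the part of the listed ones in the results was not tested. In pooled oocytes a lower level in each cell and a loss in some of the cells cannot be told apart, nor, with oligo(dT) priming, can loss of RNA and loss of its poly(A) tail.

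Most import RNAs declined during maturation. Among the 32 members, 19 were called lower, 1 (Timm21) was called higher and 12 were not called, by limma on log2(scaled TPM + 1). A call needed an adjusted p under 0.05 together with a log2 fold change beyond 1 in size. Under scaling to the mitochondrially encoded RNAs all 32 were called lower, beside 81.6% of the 13968 genes tested. In the main scaling 24.0% of these genes were called lower and 12.5% higher. The median log2 fold change of the members was -1.77, beside -0.00 over all tested genes. Scaling to the mitochondrially encoded RNAs (called mitochondrial scaling below) moved the median of all genes to -1.74 and that of the members to -3.46, so that 28 members lay below the median of all genes, beside 27 in the main scaling. With no limit on the fold, 26 members were lower and 4 higher, beside 32.8% and 29.8% of the genes (62.6% in either direction). Every MII library was below every GV library for 26 members, where 41.6% of all genes do the same, and above for 4, where 41.1% do. Called members kept between 2.67% and 43.3% of their GV level (median 10.6%). All 32 members passed the filter on low values (at least 1 TPM in 2 libraries), 1 of them, Chchd4, through its GV libraries alone, the group where it is high. Without Chchd4, 18 of 31 members were called lower in MII and the median was -2.06.

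**Figure D1:**
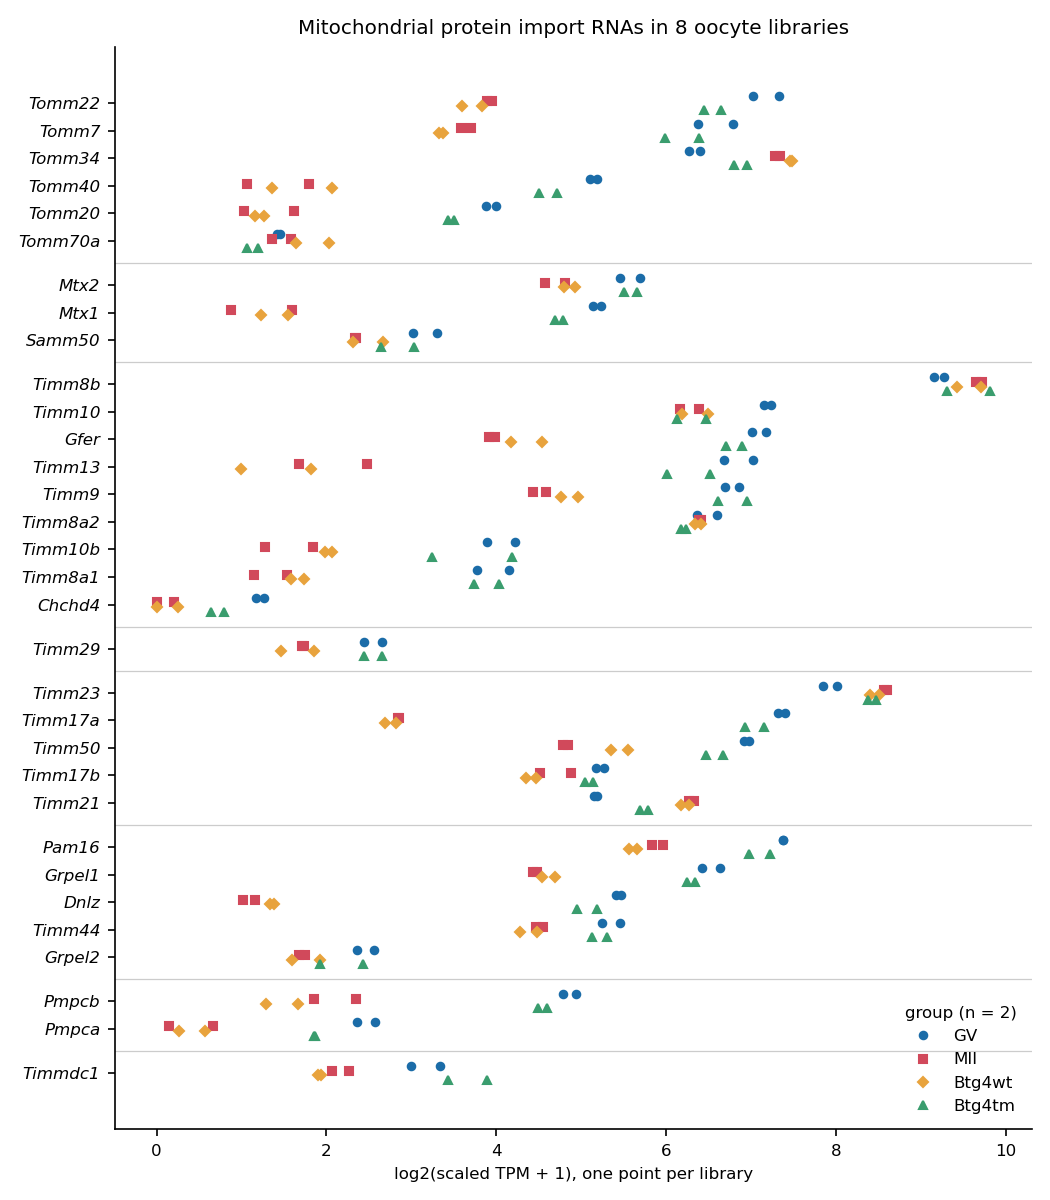
Level of each of the 32 members in each of the 8 libraries, on a log2(scaled TPM + 1) axis, with members grouped by role and ordered by their GV mean. Blue circles are GV, red squares MII, orange diamonds Btg4wt and green triangles Btg4tm (n = 2 each); for most members red and orange lie left of blue and green, while Timm8b, Timm23, Timm21 and Tomm34 lie right of GV in MII, an order that turns under scaling to the mitochondrially encoded RNAs.

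At the outer membrane, most RNAs of the TOM gate were lower in MII. Of the 6 TOM members, 4 (Tomm22, Tomm7, Tomm40 and Tomm20) were called lower in MII, and the same 4 were called higher in Btg4tm than in Btg4wt. Tomm22, the central receptor that organises the complex, was at 129 and 159 scaled TPM in GV, 14.4 and 13.8 in MII, 11.1 and 13.2 in Btg4wt and 86.4 and 99.1 in Btg4tm oocytes. It fell by 3.26 ± 0.15 on the log2 scale (SE; adjusted p = 1.3e-06), and mutant oocytes lay between both low groups and GV with no overlap. Tomm40, the channel, was at 33.2 and 35.4 in GV, 1.10 and 2.47 in MII, 3.19 and 1.56 in Btg4wt and 25.2 and 21.6 in Btg4tm. Its log2 fold change was -3.71 ± 0.30 in MII against GV (adjusted p = 1.8e-05) and 2.89 ± 0.30 in Btg4tm against Btg4wt (adjusted p = 0.00011). The receptor Tomm20 was at 13.7 and 14.9 in GV, 1.04 and 2.08 in MII, 1.41 and 1.23 in Btg4wt and 10.3 and 9.82 in Btg4tm (-2.61 ± 0.23 in MII, adjusted p = 2.9e-05). The small subunit Tomm7 was at 109 and 81.9 in GV, 12 and 11.0 in MII, 8.99 and 9.33 in Btg4wt and 62.5 and 82.4 in Btg4tm (-2.93 ± 0.18 in MII, adjusted p = 4.8e-06). For both, neither low group overlapped GV or the mutant.

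Tomm34 and Tomm70a were not called in either comparison. Tomm34, a co-chaperone of Hsp70 and Hsp90 that is largely cytosolic, was at 76.0 and 83.5 in GV, 160 and 155 in MII, 178 and 174 in Btg4wt and 110 and 122 in Btg4tm. All MII libraries were above all GV libraries (log2 fold change 0.97 ± 0.10, adjusted p = 7.1e-05, just under the fold limit; -1.22 when scaled to the mitochondrially encoded RNAs), and the value passed the limit without GV replicate 2 (1.04) or MII replicate 2 (1.0). Mutant oocytes were below Btg4wt by 0.60 (log2 fold change -0.60 ± 0.10, adjusted p = 0.0016; 0.48 under the mitochondrial scaling). Tomm70a, the receptor for carrier proteins, was low throughout, at 1.74 and 1.67 in GV, 1.57 and 1.99 in MII, 2.13 and 3.08 in Btg4wt and 1.10 and 1.29 in Btg4tm. GV and MII overlapped (log2 fold change 0.04 ± 0.22, adjusted p = 0.90; -0.06 in the TPM as deposited and -1.37 under the mitochondrial scaling), and both mutant libraries lay under both Btg4wt libraries (-0.71 ± 0.22, adjusted p = 0.029).

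In the SAM complex, which inserts β-barrel proteins, 1 of 3 members was called lower. Mtx1 and Mtx2 are metaxins that sit together on Samm50. Mtx1 was at 36.7 and 34.2 in GV, 0.839 and 2.02 in MII, 1.35 and 1.93 in Btg4wt and 24.8 and 26.6 in Btg4tm. This was a log2 fold change of -3.95 ± 0.25 in MII (adjusted p = 5.5e-06) and of 3.35 ± 0.25 in Btg4tm against Btg4wt (adjusted p = 2e-05). Mtx2 was at 50.8 and 42.8 in GV, 22.9 and 27.0 in MII, 29.4 and 26.9 in Btg4wt and 49.5 and 44.4 in Btg4tm. Its MII libraries were also below GV, but by a log2 fold change of -0.88 ± 0.14 (adjusted p = 0.00086), short of the fold limit except without GV replicate 2 (-1.0), and the mutant libraries overlapped GV. Samm50, the insertase, was at 8.85 and 7.09 in GV, 4.04 and 4.07 in MII, 3.97 and 5.37 in Btg4wt and 7.15 and 5.24 in Btg4tm. Its log2 fold change in MII was -0.82 ± 0.22 (adjusted p = 0.012), and in Btg4tm against Btg4wt the groups overlapped (0.34 ± 0.22, adjusted p = 0.24).

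In the intermembrane space 6 of 9 members were called lower in MII (5 of 8 without Chchd4) and 5 of these higher in Btg4tm than in Btg4wt. Gfer, the sulfhydryl oxidase that recharges Chchd4, was at 128 and 144 in GV, 14.0 and 14.9 in MII, 17.1 and 22.1 in Btg4wt and 104 and 118 in Btg4tm (log2 fold change -3.15 ± 0.15 in MII, adjusted p = 1.4e-06). Chchd4, the disulfide relay receptor, was at the limit of what could be measured. It was listed at 1.41 and 1.26 in GV, at 0 and 0.151 in MII, at 0 and 0.190 in Btg4wt and at 0.559 and 0.735 in Btg4tm. It was called lower in MII (-1.12 ± 0.22, adjusted p = 0.0023), and it is the only one of the 19 that was not called higher in Btg4tm (0.59 ± 0.22, adjusted p = 0.052), although its mutant libraries lay above both Btg4wt libraries. At these levels the pseudocount of 1 sets the size of the fitted change, and because the gene passed the filter through GV alone, its call in MII supports nothing.

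The small TIM chaperones work as hexamers of alternating subunits, Timm9 with Timm10 and Timm8a1 with Timm13, and the RNAs within a pair changed by different amounts. Timm13 had the most negative fold change of all 32 members. It was at 128 and 101 in GV, 2.19 and 4.58 in MII, 2.53 and 0.991 in Btg4wt and 63.3 and 90.3 in Btg4tm, with a log2 fold change of -4.77 ± 0.35 in MII (adjusted p = 1.1e-05) and 4.85 ± 0.35 in Btg4tm against Btg4wt (adjusted p = 1.7e-05). Its partner Timm8a1, at 16.7 and 12.7 in GV, fell to 1.90 and 1.22 in MII, and was at 2.34 and 2.0 in Btg4wt and 15.4 and 12.3 in Btg4tm (-2.62 ± 0.23 in MII, adjusted p = 2.8e-05). Timm8a2, a close paralog of Timm8a1, was at 81.2 and 96.1 in GV, 82.5 and 84.3 in MII, 84.1 and 80.2 in Btg4wt and 71.4 and 74.2 in Btg4tm. GV and MII overlapped (log2 fold change -0.08 ± 0.11, adjusted p = 0.54; 0.11 after quantile normalization and -2.27 under the mitochondrial scaling).

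Timm8b, a further relative of Timm8a1, had the highest mean level of all members in each of the 4 groups, at 618 and 568 in GV, 840 and 802 in MII, 684 and 835 in Btg4wt and 631 and 900 in Btg4tm. Its MII libraries were above GV by a log2 fold change of 0.47 ± 0.17 (adjusted p = 0.04; -1.75 under the mitochondrial scaling), while both injected groups overlapped each other (-0.00 ± 0.17, adjusted p = 0.99; 1.08 under the mitochondrial scaling). Timm9 was at 103 and 115 in GV, 20.5 and 22.9 in MII, 30.3 and 26.2 in Btg4wt and 96.9 and 123 in Btg4tm (-2.27 ± 0.15 in MII, adjusted p = 6.5e-06; 1.92 ± 0.15 in Btg4tm against Btg4wt, adjusted p = 2.6e-05). Timm10, which forms the hexamer with Timm9, behaved otherwise. It was at 141 and 149 in GV, 70.7 and 82.9 in MII, 88.8 and 72.0 in Btg4wt and 87.9 and 68.7 in Btg4tm. Timm10 thus stayed in mutant oocytes at the level of Btg4wt, with overlapping libraries (-0.04 ± 0.16, adjusted p = 0.85; 1.03 under the mitochondrial scaling), at 53.9% of GV. Its change in MII was -0.92 ± 0.16 (adjusted p = 0.0012), past the fold limit without MII replicate 2 (-1.03). Timm10b, a small TIM protein of the TIM22 complex, was at 17.6 and 13.9 in GV, 1.43 and 2.59 in MII, 2.94 and 3.17 in Btg4wt and 8.47 and 17.2 in Btg4tm (-2.49 ± 0.33 in MII, adjusted p = 0.00025), and its mutant libraries were the most unlike each other.

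Only 1 further subunit of the TIM22 complex was a member. Timm29, which joins TIM22 to the TOM gate, was at 4.44 and 5.29 in GV, 2.28 and 2.33 in MII, 2.62 and 1.75 in Btg4wt and 5.28 and 4.45 in Btg4tm. MII lay below GV without overlap (-0.82 ± 0.22, adjusted p = 0.011), and mutant oocytes above Btg4wt (0.89 ± 0.22, adjusted p = 0.0098; 1.09, past the fold limit, without Btg4wt replicate 1).

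Members of the TIM23 channel ran from -4.51 to 1.13 in their log2 fold changes in MII, and the positive ones turned under the mitochondrial scaling. Timm23 itself, the pore subunit, was at 257 and 230 in GV, 386 and 379 in MII, 338 and 363 in Btg4wt and 353 and 331 in Btg4tm. Its MII libraries were above GV (0.65 ± 0.10, adjusted p = 0.00054; -1.56 under the mitochondrial scaling) and the injected groups overlapped (-0.03 ± 0.10, adjusted p = 0.81; 1.05 under the mitochondrial scaling). Of its annotated transcript, 95.5% lies in stretches of 50 bases that 8 other annotated genes also hold, most of them gene models without a name, and reads with a low mapping quality had been dropped, so its level is uncertain. Timm21, which links TIM23 to TOM, was at 35.3 and 34.6 in GV, 76.0 and 79.5 in MII, 71.5 and 76.4 in Btg4wt and 50.8 and 54.0 in Btg4tm. It was the only member called higher in MII (1.13 ± 0.10, adjusted p = 3.6e-05), a call lost in the TPM as deposited (0.98) and turned under the mitochondrial scaling (-1.04). In mutant oocytes it lay between GV and Btg4wt (Btg4tm against Btg4wt -0.49 ± 0.10, adjusted p = 0.005; 0.58 under the mitochondrial scaling).

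Timm17a and Timm17b are alternative partners of Timm23 in the channel. Timm17a (chr1:135295213-135313778) was at 168 and 158 in GV, 6.17 and 6.25 in MII, 5.43 and 6.07 in Btg4wt and 121 and 141 in Btg4tm. It fell by 4.51 ± 0.13 on the log2 scale in MII (adjusted p = 2.5e-07) and was higher in Btg4tm than in Btg4wt by 4.29 ± 0.13 (adjusted p = 7.5e-07). Timm17b (chrX:7899357-7908351) was at 34.9 and 37.7 in GV, 28.3 and 21.9 in MII, 19.4 and 21.2 in Btg4wt and 31.9 and 34.2 in Btg4tm. Its groups did not overlap either, but the differences were -0.52 ± 0.15 (adjusted p = 0.015) and 0.68 ± 0.15 (adjusted p = 0.0059). Timm50, the presequence receptor of the channel, was at 125 and 120 in GV, 27.8 and 26.6 in MII, 39.8 and 45.8 in Btg4wt and 87.3 and 100 in Btg4tm (-2.13 ± 0.12 in MII, adjusted p = 3.2e-06; 1.11 ± 0.12 in Btg4tm against Btg4wt, adjusted p = 0.00014).

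Of the 5 members of the PAM motor, 3 were called lower in MII and higher in Btg4tm than in Btg4wt. Pam16, which holds the J-protein of the motor in check, was at 165 and 166 in GV, 61.1 and 55.9 in MII, 49.4 and 46.2 in Btg4wt and 125 and 148 in Btg4tm (-1.49 ± 0.12, adjusted p = 1.7e-05; 1.49 ± 0.12, adjusted p = 2.7e-05). Dnlz, the escort protein that keeps mitochondrial Hsp70 soluble, was at 43.4 and 41.6 in GV, 1.03 and 1.24 in MII, 1.52 and 1.61 in Btg4wt and 30 and 35.5 in Btg4tm. With a log2 fold change of -4.35 ± 0.17 in MII (adjusted p = 6.8e-07) it kept the smallest share of its GV level among the called members, 2.67%. Grpel1, the nucleotide exchange factor of that Hsp70, was at 98.0 and 84.8 in GV, 21.3 and 20.7 in MII, 24.7 and 22.3 in Btg4wt and 79.6 and 75 in Btg4tm (-2.07 ± 0.12, adjusted p = 3.9e-06).

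Its paralog Grpel2 was at 4.12 and 4.87 in GV, 2.2 and 2.37 in MII, 2.01 and 2.80 in Btg4wt and 2.81 and 4.39 in Btg4tm (-0.74 ± 0.24 in MII, adjusted p = 0.027; 0.42 ± 0.24 in Btg4tm against Btg4wt, adjusted p = 0.18). Timm44, which tethers Hsp70 to the channel, was at 42.7 and 37.0 in GV, 22.4 and 21.1 in MII, 18.4 and 21.3 in Btg4wt and 33.9 and 38.3 in Btg4tm. Both differences passed the test on the adjusted p but not on the fold (-0.84 ± 0.14, adjusted p = 0.001; 0.83 ± 0.14, adjusted p = 0.0015).

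Both subunits of the matrix processing peptidase, which cuts off presequences, were called in both comparisons. The catalytic subunit Pmpcb was at 29.7 and 26.5 in GV, 4.09 and 2.63 in MII, 2.18 and 1.44 in Btg4wt and 21.5 and 23.1 in Btg4tm (-2.76 ± 0.22, adjusted p = 1.8e-05; 3.06 ± 0.22, adjusted p = 1.7e-05). Pmpca was at 4.93 and 4.14 in GV, 0.105 and 0.587 in MII, 0.485 and 0.202 in Btg4wt and 2.61 and 2.64 in Btg4tm (-2.06 ± 0.25, adjusted p = 0.00016; 1.44 ± 0.25, adjusted p = 0.0017). It was under 1 TPM in every MII and Btg4wt library and passed the filter through GV and Btg4tm, the groups where it is high. The pseudocount of 1 therefore weighs on the size of its fitted changes. Timmdc1, a relative of the TIM proteins that serves in the assembly of respiratory complex I, was at 9.12 and 6.97 in GV, 3.79 and 3.17 in MII, 2.72 and 2.84 in Btg4wt and 9.76 and 13.8 in Btg4tm. It only just passed the fold limit in MII (-1.01 ± 0.23, adjusted p = 0.0047), and the call was lost without GV replicate 1 (-0.83), without MII replicate 2 (-0.91), after quantile normalization (-0.64) and after removal of length and GC trends (-0.31).

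Mutant BTG4 was accompanied by higher levels of nearly all RNAs that had declined. Of the 32 members, 18 were called higher in Btg4tm than in Btg4wt and 0 lower, where 18.1% and 7.94% of the tested genes were called. With no limit on the fold, 22 members were higher and 3 lower (Timm21, Tomm34 and Tomm70a, of which the first pair turned under the mitochondrial scaling), beside 26.2% and 23.3% of the genes (49.5% in either direction). Every Btg4tm library was above every Btg4wt library for 24 members and below for 4, where 37.6% and 36.7% of genes do the same. The median log2 fold change was 1.46, beside 0.01 over all tested genes. All 18 were among the 19 members that were lower in MII, with Chchd4 as the exception. Over all tested genes, 70.0% of the 3351 that were lower in MII were higher in Btg4tm. The 2 comparisons share no library.

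**Figure D2:**
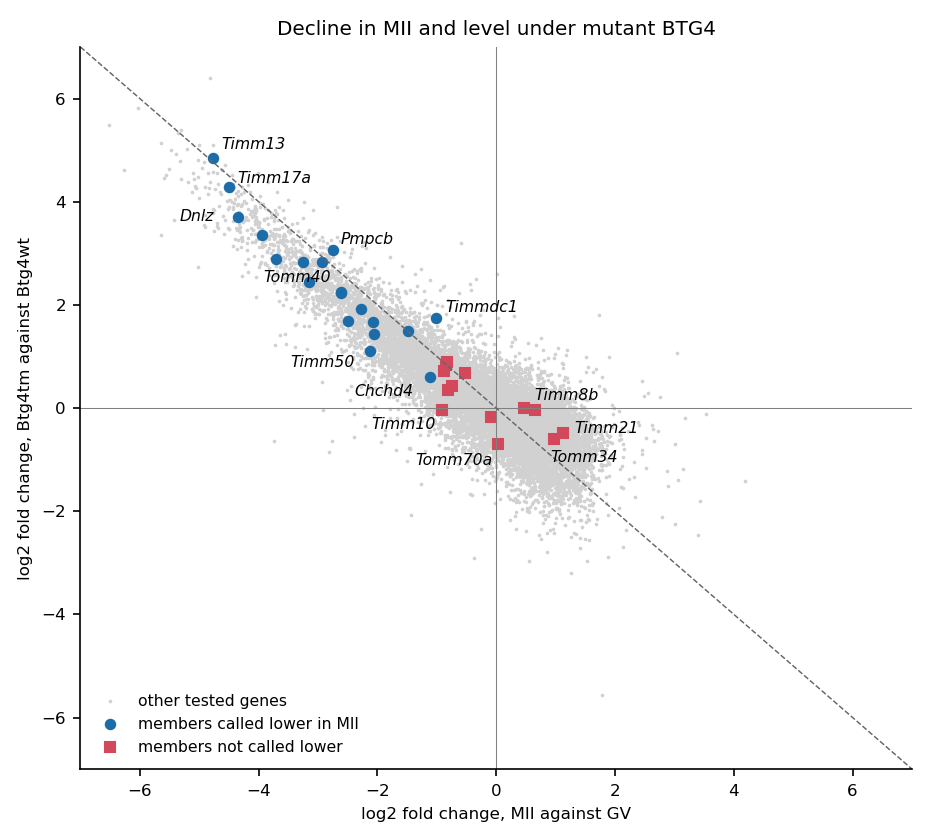
Log2 fold change in MII against GV (x axis) and in Btg4tm against Btg4wt (y axis) for each of the 13968 tested genes (grey), with the 19 members called lower in MII as blue circles and the other 13 as red squares. The dashed line marks a difference in the mutant equal and opposite to the decline; Timm50 lies furthest below it among the blue members and Timmdc1 furthest above it, and the red members right of 0, such as Timm21 and Tomm34, move left of 0 under scaling to the mitochondrially encoded RNAs.

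The mutant difference was set against the decline in each member. The log2 difference of Btg4tm and Btg4wt, as a share of that of GV and MII, is called the regained share. It is a name only, since each group was sampled at a single stage and no fall with a later return was observed. Over the 19 declining members the share ran from 52.4% to 173%, with a median of 84.9% (85.1% without Chchd4), beside 76.5% over all declining genes. The highest share belongs to Timmdc1, whose decline only just passed the fold limit. Mutant levels were 48.5% of GV (Chchd4, or 57.9% without it) to 147% (again Timmdc1). Their median was 77.0%, beside 76.1% for all declining genes. Timm17a regained 95.1% and Tomm7 96.9% of their declines, Pam16 and Timm13 100% and 102%, and Pmpcb 111%. Timm50, at the low end, regained 52.4%. It was the only member called in a direct test of the regain minus the decline (-1.01 ± 0.17, adjusted p = 0.019), where 1.70% of tested genes were called lower and 1.99% higher. Under the mitochondrial scaling 23 members were called lower in this test, beside 47.3% of the genes, and the members' median went from -0.34 to -1.23. The call depended on single libraries. Without Btg4tm replicate 2 it was kept, and without any other library in turn it was lost, by the fold or by the adjusted p (values -0.91 to -1.11), as it was without a variance trend (adjusted p = 0.071). Its Btg4wt libraries, at 39.8 and 45.8, were themselves above MII, at 27.8 and 26.6. Timm10, which was not called lower in MII, had a regain minus decline of -0.96 ± 0.22 (adjusted p = 0.041). With no limit on the fold, 2 members were lower in this test (Timm50 and Timm10) and 2 higher (Timm21, 0.64, and Timm23, 0.62, which were -0.46 and -0.51 under the mitochondrial scaling), beside 2.72% and 4.90% of the genes (7.62% in either direction).

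Compared with GV directly, 0 members were called in mutant oocytes, where 1.02% of tested genes were called lower and 1.02% higher. Under the mitochondrial scaling 10 members were called lower, beside 21.3% of the genes, and the median went from -0.30 to -0.92. With no limit on the fold 2 were lower (Timm10, -0.89 ± 0.16, adjusted p = 0.013; Tomm22, -0.62 ± 0.15, adjusted p = 0.036) and 3 higher (Timm21, 0.57 ± 0.10, adjusted p = 0.014; Timm23, 0.49 ± 0.10, adjusted p = 0.019; Tomm34, 0.54 ± 0.10, adjusted p = 0.016), beside 3.73% and 7.66% of the genes (11.4% in either direction). Every mutant library was below every GV library for 18 members and above for 5, where 34.2% and 25.3% of genes do the same. At an unadjusted p under 0.05 there were 11, beside 29.7% of the genes. The median was -0.30, beside -0.08 over all genes. Injected and control oocytes also come from tables that list different genes, so the injection and the table cannot be told apart here. The GV libraries are also those of the MII comparison.

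Wild-type BTG4 left the import RNAs near the level of MII. In Btg4wt against MII 0 members were called by limma, as were 0 of all genes tested (0.00% in either direction), and 5 members had an unadjusted p under 0.05, as did 11.8% of all genes. Every Btg4wt library was above every MII library for 9 members and below for 8, where 24.1% and 20.8% of genes do the same. The median log2 fold change was 0.02, and the members ran from -0.67 (Timm13) to 0.63 (Timm50). A p that misses the threshold does not show that the levels are equal.

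Because the declines were unequal, the ratios between the RNAs of paralogs or partners changed in most pairs. Protein levels were not examined here. The ratio of Timm17a to Timm17b was 4.8 and 4.20 in GV, 0.218 and 0.285 in MII, 0.280 and 0.287 in Btg4wt and 3.8 and 4.13 in Btg4tm oocytes. Timm17a thus had the higher level in GV and mutant oocytes and Timm17b in the other 2 groups. The ratio of Mtx1 to Mtx2 was 0.722 and 0.799 in GV, 0.0367 and 0.0746 in MII, 0.0461 and 0.0719 in Btg4wt and 0.501 and 0.60 in Btg4tm, so that the mutant stayed somewhat under GV. Grpel1 over Grpel2 went from 23.8 and 17.4 in GV to 9.66 and 8.72 in MII, with 12.3 and 7.98 in Btg4wt and 28.4 and 17.1 in Btg4tm. Pmpca over Pmpcb overlapped between GV (0.166 and 0.156) and MII (0.0257 and 0.223). With Pmpca at 0.105 and 0.587 in MII, this ratio is too imprecise to show whether it changed. Timm10 over Timm10b was 8.02 and 10.8 in GV and 49.5 and 32 in MII, with 30.2 and 22.7 in Btg4wt and 10.4 and 3.99 in Btg4tm, so it went the other way. Timm8a1 over Timm8b was 0.0270 and 0.0223 in GV, 0.00227 and 0.00152 in MII, 0.00342 and 0.00239 in Btg4wt and 0.0244 and 0.0137 in Btg4tm.

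**Figure D3:**
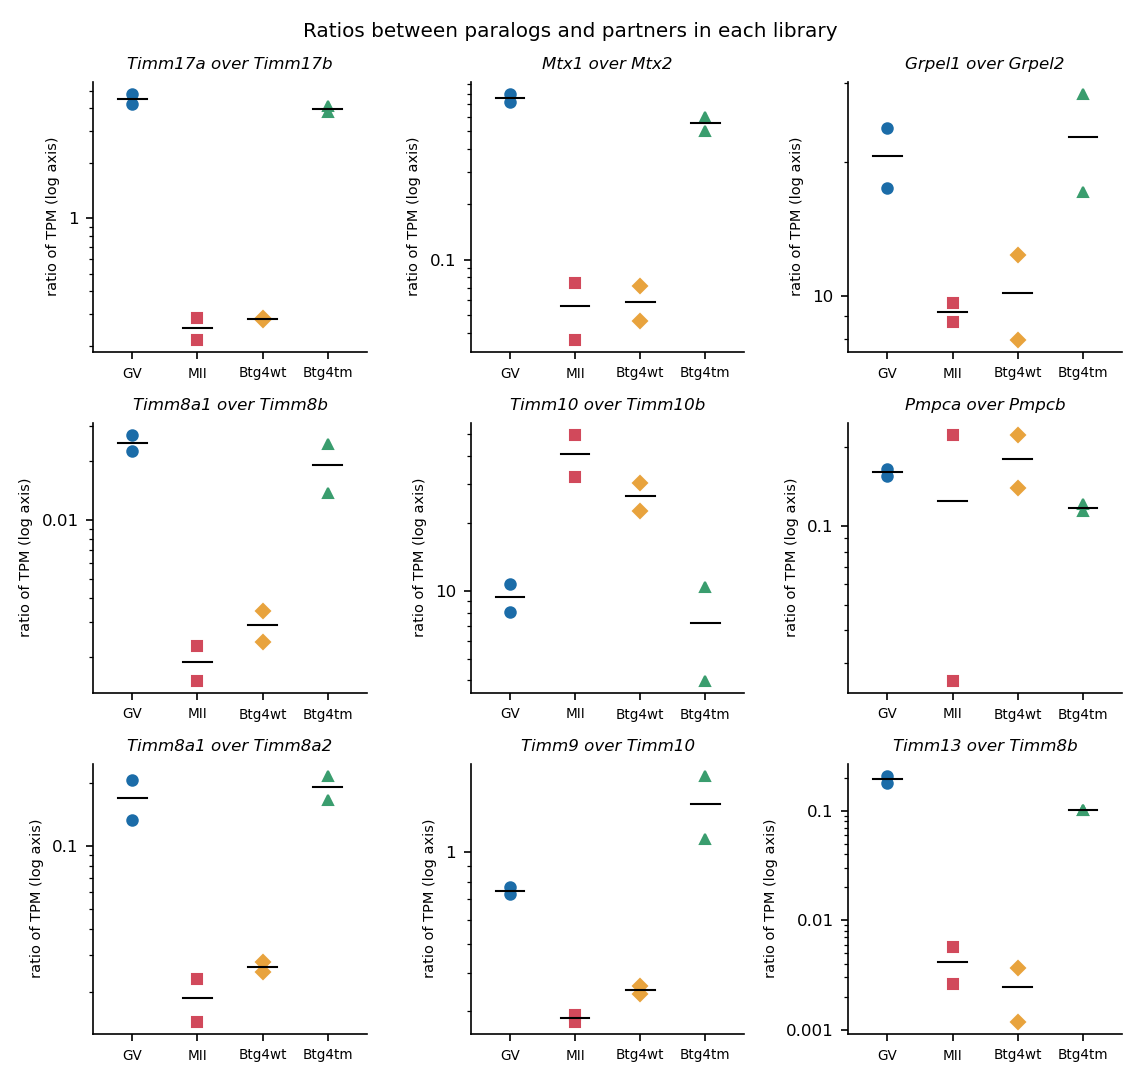
Ratio of scaled TPM between paralogs or partners in each library, on log axes, with the 6 pairs of the list in the upper panels and the 3 pairs chosen after their values had been seen in the bottom row. Points are the libraries (n = 2 per group) and black bars their mean; MII and Btg4wt lie below GV and Btg4tm in 7 panels, above them for Timm10 over Timm10b, and for Pmpca over Pmpcb both overlap GV. In that last pair Pmpca is under 1 TPM in MII and Btg4wt, so the ratio is imprecise there.

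Among the small TIMs, 3 ratios were chosen after their values had been seen. Timm9 over Timm10 was 0.728 and 0.768 in GV, 0.290 and 0.277 in MII and 0.341 and 0.364 in Btg4wt, and was above GV in the mutant (1.10 and 1.79), where Timm9 overlapped GV and Timm10 did not. Timm8a1 over Timm8a2 was 0.206 and 0.132 in GV, 0.0231 and 0.0144 in MII, 0.0278 and 0.0249 in Btg4wt and 0.216 and 0.166 in Btg4tm. Timm13 over Timm8b was 0.208 and 0.178 in GV, 0.00261 and 0.00571 in MII, 0.00370 and 0.00119 in Btg4wt and 0.10 and 0.10 in Btg4tm, still below GV. A ratio within a library does not depend on the scaling between libraries.

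The sum over all members hides much of this. It was 2715 and 2619 scaled TPM in GV, 1894 and 1858 in MII, 1730 and 1892 in Btg4wt and 2410 and 2823 in Btg4tm. Timm8b and Timm23 made up 32.2% and 30.5% of it in GV and 64.7% and 63.6% in MII, with 59.1% and 63.3% in Btg4wt and 40.8% and 43.6% in Btg4tm. Without this pair the sum was 1841 and 1821 in GV, 668 and 677 in MII, 708 and 694 in Btg4wt and 1426 and 1592 in Btg4tm. In the order of mean levels Timm17a went from place 4 in GV to place 17 in MII, and Timm13 went from place 9 to place 20. Tomm34 went from place 14 to place 3. Neighbours such as Pam16 (165 and 166) and Timm17a (168 and 158) in GV overlapped and have no order. Sums, shares and places carry the uncertain level of Timm23, with 95.5% of its transcript in shared stretches. They also carry that of Timm8b, where Nkapd1 on the opposite strand lies over 15.6% of the exonic bases.

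**Figure D4:**
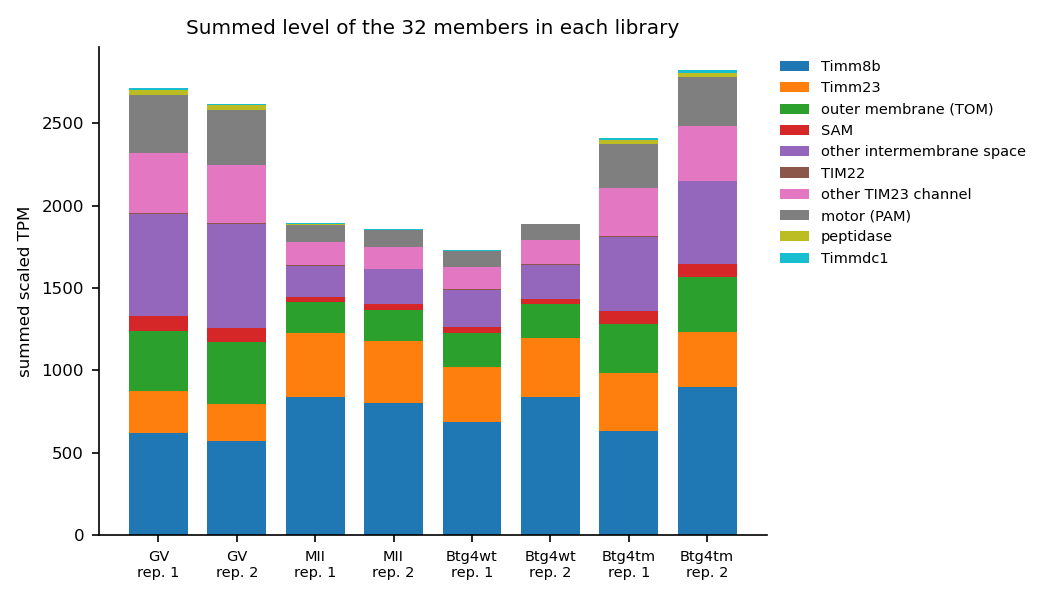
Summed scaled TPM of the 32 members in each of the 8 libraries, split into Timm8b, Timm23 and the remaining members by role. The bars start at 0; Timm8b and Timm23 take 30.5% to 32.2% of the GV bars and 63.6% to 64.7% of the MII bars.

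The sequences printed above can be set beside these values. A cytoplasmic polyadenylation element was found in the last 100 bases of 4 of 32 members (12.5%), and in 2158 of 11021 tested genes with an annotated 3′ UTR (19.6%). Of the 4 members with it (Timm8b, Tomm34, Timm29 and Tomm70a) 0 were called lower in MII, and of the 28 without it 19 were (67.9%). Chchd4, whose call in MII supports nothing, is among the 19. Under the mitochondrial scaling all members of both kinds were called lower, as were 81.6% of the genes, so the calls there cannot show this split. The 4 are not alike, since Timm29 was lower in MII at a smaller fold and Timm8b, Tomm34 and Tomm70a had fold changes of 0.47, 0.97 and 0.04. Under the mitochondrial scaling the last 3 were at -1.75, -1.22 and -1.37, beside medians of -3.46 over the members and -1.74 over all genes. The members without the element that were not called lower include Timm23, Timm21, Timm8a2 and Timm17b. Over all genes 12% with the element and 26.7% without it were called lower, with median log2 fold changes of 0.49 and -0.09. A polyadenylation signal was found in 28 of the 32 members (87.5%) and in 80.9% of the genes.

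**Figure D5:**
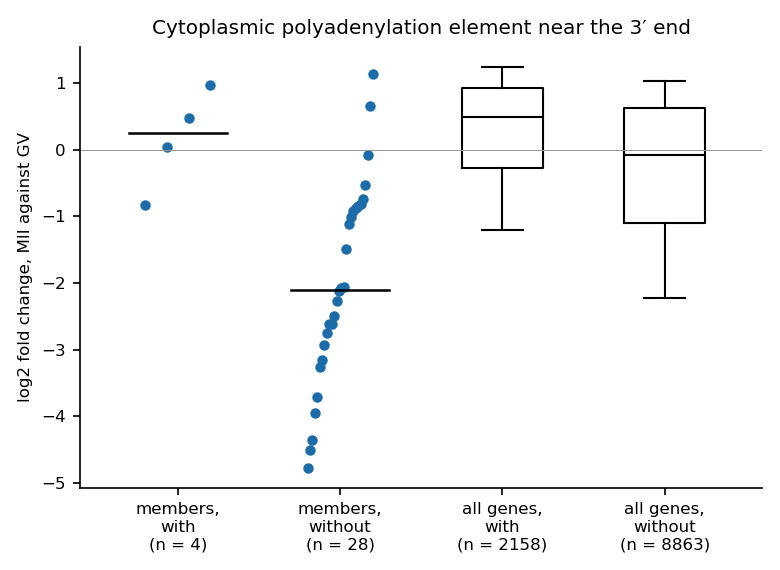
Log2 fold change in MII against GV for members with (n = 4) and without (n = 28) a cytoplasmic polyadenylation element in the last 100 bases of the annotated transcript, as points with a line at the median, and for all tested genes with an annotated 3′ UTR as boxes (median, quartiles, whiskers at the 10th and 90th percentile). The members with the element run from -0.82 to 0.97 and those without it from -4.77 to 1.13; values above 0 turn negative for these members under scaling to the mitochondrially encoded RNAs.

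Declining and other members also differed in further features, given here without a test. The median annotated transcript of all members had 1783 bases, beside 2886 over the tested genes. It had 1617 bases in the 19 called lower in MII and 2381 in the other 13, with a median 3′ UTR of 869 and 1456 bases. Over all tested genes the medians were 1843 bases in those called lower and 3288 in the others, with 3′ UTRs of 451 and 1138. A polyadenylation signal was found in 15 of the 19 and in all 13 of the others. Across the 32 members the fold change in MII had a Spearman rho of 0.03 with transcript length and of 0.04 with 3′ UTR length. It was -0.14 with GC content and -0.14 with the level in GV. Across all genes the value for transcript length was 0.40 and that for 3′ UTR length 0.30. These are descriptions across genes, which share libraries and are not independent replicates. With length and GC trends removed from each library, the members' median was -1.11 in MII and 1.06 in Btg4tm against Btg4wt. The members lie on 16 chromosomes, 2 of them on the X. In 13 members at least 10% of the transcript is also found in another annotated gene, such as Timm8a1 (43.1%, with Gm9797). Exons of another gene lie over more than 10% of the exonic bases of 6 members. Mtx1 is among them, with Thbs3 and Gm43737 on the opposite strand over 30.1% of its exonic bases. Counting ignored the strand, so reads in that part of Mtx1 could not be assigned by strand, which leaves its level uncertain. Of the 19 declining members, Chchd4, Pmpcb and Timm50 had neither shared stretches nor overlapping exons.

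Further mitochondrial genes outside the rule were taken from 3 lists, the motor, peptidase and insertion genes, the matrix chaperones and proteases, and the MICOS complex of the cristae junctions. The last 2 lists go beyond the import machinery. Of the 32 tested, 16 were called lower in MII and 1 higher (median -1.15), beside 24.0% and 12.5% of all genes, and 16 were called higher and 1 lower in Btg4tm against Btg4wt (median 0.87), beside 18.1% and 7.94%. Under the mitochondrial scaling, tried after these values had been seen, 31 were lower and 0 higher in MII, beside 81.6% and 0.0501% of all genes. In Btg4tm against Btg4wt 23 were higher and 0 lower under it, beside 43.6% and 0.494%. Of the 12 motor, peptidase and insertion genes 7 were lower in MII, of the 12 chaperones and proteases 5 and of the 8 MICOS genes 4. The gene called higher was Romo1, a small subunit at the TIM23 channel, at 240 and 223 in GV, 686 and 639 in MII, 496 and 554 in Btg4wt and 311 and 408 in Btg4tm (1.51 ± 0.14, adjusted p = 3.3e-05; -0.70 under the mitochondrial scaling). Immp1l, of the inner membrane peptidase, had the highest mean, at 439 and 481 in GV, 713 and 747 in MII, 827 and 842 in Btg4wt and 586 and 689 in Btg4tm (0.67 ± 0.11, adjusted p = 0.00078; -1.55 under the mitochondrial scaling). Apoo, a MICOS subunit, was at 324 and 334 in GV, 54.6 and 47.9 in MII, 77.7 and 76.2 in Btg4wt and 224 and 292 in Btg4tm (-2.66 ± 0.14, adjusted p = 2e-06). The lowest fold changes belonged to the matrix protease Clpp (-3.95 ± 0.21), the MICOS subunit Micos13 (-3.75 ± 0.15) and Chchd10 (-2.92 ± 0.33). In Btg4tm against GV and in Btg4wt against MII 0 of the 32 were called.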

How the data were processed

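The authors built Smart-seq2 libraries with oligo(dT) priming from pools of 15 oocytes, trimmed reads with Trim Galore (0.6.10), aligned them to GRCm38 with HISAT2 (2.2.0) and GENCODE vM25, counted exonic reads with featureCounts (2.0.6) without strand and at a minimum mapping quality, and deposited TPM per gene symbol. Gene lengths and the filter on listed genes are not given in the sources used here. The sample labels speak of 3 samples per group, and 2 per group were analysed here. No source states that replicates were separate cultures, so p-values measure the spread between these libraries, which may be technical. Depth is unknown, because TPM keep none. The 15962 genes listed in all 8 tables were scaled by the median of ratios, filtered at 1 TPM in at least 2 libraries (13968 genes) and tested with limma (3.58.1, R 4.3.3; empirical Bayes with trend, 1 coefficient per group, all 8 libraries) on log2(scaled TPM + 1). Fold changes are on that scale and understate changes of low genes. P-values were adjusted by Benjamini-Hochberg over all tested genes; calls also needed a log2 fold change beyond 1 in size. The design was fixed for TPM; the count-based DESeq2 test of the authors was not used. Members, gene lists and rules for named genes were chosen with earlier results of these data known. The rule for naming took, in each role, the 2 highest members and the 2 with the largest called change in MII, all members not called lower in MII, those called lower but not higher in Btg4tm, and those called for regain minus decline or in Btg4wt against MII; the values of the other members were added after they had been seen. Of the genes in the 3 other lists, the 3 highest and the 3 with the largest change in MII were named. Alternatives were other scalings, pseudocounts, filters and libraries in the fit, a replicate block, no variance trend, no fold limit, removal of length and GC trends and leaving out each library.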

Additional observations from a re-analysis of the deposited data

How the results depend on the processing

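The main split, 19 members lower in MII and 18 higher in Btg4tm than in Btg4wt, stayed at 18 to 20 and at 18 to 19 when each library was left out in turn. Those counts include Chchd4, and the filter on low values was set once on all 8 libraries, so leaving out a GV library could not remove it. Without Chchd4, and with all libraries kept, 18 of 31 members were lower in MII and 18 higher in Btg4tm than in Btg4wt. Scaling to the mitochondrially encoded RNAs moved all genes together. The members' medians were -3.46 (MII against GV), 2.37 (Btg4tm against Btg4wt), -0.92 (Btg4tm against GV), 0.37 (Btg4wt against MII) and -1.23 (regain minus decline). Those of all genes were -1.74, 0.88, -0.64, 0.39 and -1.02. This scaling gave 32 members lower and 0 higher in MII, beside 81.6% and 0.0501% of the genes. It gave 10 lower in Btg4tm against GV (21.3% of the genes), 1 higher in Btg4wt against MII (0.494%) and 23 lower for regain minus decline (47.3%). It also turned MII against GV for Timm21 (-1.04), Timm23 (-1.56), Timm8b (-1.75), Tomm34 (-1.22) and Tomm70a (-1.37), Btg4tm against Btg4wt for Timm10 (1.03), Timm21 (0.58), Timm23 (1.05), Timm8a2 (0.90), Timm8b (1.08) and Tomm34 (0.48), and regain minus decline for Timm21 (-0.46) and Timm23 (-0.51).

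In MII against GV, 0 members were higher in the TPM as deposited, 2 after quantile normalization, 4 with length and GC trends removed and 4 with no fold limit, and 1 to 2 without single libraries. The median log2 fold change of members in MII against GV was -1.90 as deposited, -1.54 after quantile normalization, -2.14 at a pseudocount of 0.1, -2.10 at a filter of 5 TPM and -1.11 without length and GC trends, and -1.82 to -1.67 without single libraries. In Btg4tm against Btg4wt, 1 member was lower at a pseudocount of 0.1, 1 without length and GC trends and 3 with no fold limit. Its median was 1.31 after quantile normalization, 1.83 at the pseudocount of 0.1, 1.69 at the filter of 5 TPM and 1.06 without length and GC trends, and 1.30 to 1.57 without single libraries. In Btg4tm against GV, 1 member was lower as deposited, and 2 were lower and 3 higher with no fold limit, with 0 to 1 lower without single libraries. The median was -0.45 as deposited, -0.17 without length and GC trends and -0.38 to -0.22 without single libraries. In Btg4wt against MII it was -0.043 at the filter of 5 TPM and -0.080 to 0.12 without single libraries. For regain minus decline 2 members were lower as deposited, 2 after quantile normalization and 2 with no fold limit (which also gave 2 higher), 0 without a variance trend and 0 without length and GC trends, and 0 to 1 without single libraries; the median was -0.49 as deposited, -0.24 at the filter of 5 TPM and -0.34 to -0.23 without single libraries.

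Timm8a2 in MII against GV was 0.11 after quantile normalization and 0.86 without length and GC trends, and -0.20 to 0.038 without single libraries (0.038 without GV replicate 2). The log2 fold change of Tomm70a in MII against GV was -0.065 as deposited and -0.54 without length and GC trends, and -0.074 (without MII replicate 2) to 0.15 without single libraries. In Btg4tm against Btg4wt, Timm10 was -0.22 to 0.14 without single libraries (0.11 without Btg4wt replicate 1 and 0.14 without Btg4tm replicate 2), Timm23 -0.084 to 0.018 (0.018 without Btg4wt replicate 2 and 0.014 without Btg4tm replicate 2), and Timm8b -0.26 to 0.25 (0.14 without Btg4wt replicate 2 and 0.25 without Btg4tm replicate 1). Among values of single members, 1187 kept their direction and side of the threshold, 53 passed it, 19 fell short of it and 25 turned. Among values of the headline results, 215 stayed the same and 60 moved. The cause of these changes was not tested. The replicate numbers did not pair the libraries (correlations of -0.054 to 0.056 between groups), and with the replicate block the members called were again 19 lower and 1 higher in MII, 18 higher in Btg4tm against Btg4wt and 1 lower for regain minus decline. Depth is unknown, and 2 libraries per group limit every value.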
